A study of Mus musculus with 4 samples.

Results

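The genes described here are 10 in number, the gene of the transcription factor Nrf2 and those of its targets that serve the glutathione and thioredoxin systems or similar oxidant defence: Nfe2l2, Gclc, Gclm, Gsr, Slc7a11, Txnrd1, Srxn1, G6pdx, Hmox1 and Osgin1. They were found by gene name among the non-control probes of a mouse expression array, which gave 16 probes for 10 of the 37074 gene names and 56605 probes in all. The arrays measured liver RNA of wild-type C57BL/6 mice aged 6 weeks that received aristolochic acid I (AAI), a plant compound toxic to the kidney, or its corn oil vehicle, by intraperitoneal injection on 5 days a week over 3 weeks. Female mice received 5 mg/kg/day AAI and male mice 2 mg/kg/day, so that sex and dose cannot be told apart. RNA from 5 mice of a group was pooled and hybridized to 1 array, which gave 4 arrays, 1 each for AAI-treated females, corn oil-treated females, AAI-treated males and corn oil-treated males. The spread between mice was therefore not measured, and no test was possible.

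Nrf2 is held in the cytoplasm by Keap1, which marks it for degradation. When electrophiles or oxidants modify Keap1, Nrf2 accumulates, enters the nucleus with a small Maf partner and binds antioxidant response elements in front of its target genes. Its targets in liver supply cystine and glutathione, reduce oxidized glutathione and thioredoxin, provide the NADPH for both, degrade haem, and conjugate or reduce drugs. The control of Nrf2 acts mainly on the protein, which an array of RNA does not measure.

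The antioxidant response element has the core TGACNNNGC, and a related form reads TGAGNNNGC. To show what lies in front of the genes, the 250 bases before the transcription start were taken from RefSeq for assembly GRCm38.p6, in which 7 of the 10 genes were matched by symbol (Gclc, Gsr and Hmox1 were not). The windows printed are those of the gene of Nrf2 and of the genes with the highest AAI ratio in females (Osgin1) and in males (G6pdx and Srxn1), 5′ to 3′ on the strand of the gene, with matches to TGACNNNGC, TGAGNNNGC or the AP-1 site TGACTCA in capitals on either strand.
Nfe2l2, minus strand, chr2:75704664-75704913: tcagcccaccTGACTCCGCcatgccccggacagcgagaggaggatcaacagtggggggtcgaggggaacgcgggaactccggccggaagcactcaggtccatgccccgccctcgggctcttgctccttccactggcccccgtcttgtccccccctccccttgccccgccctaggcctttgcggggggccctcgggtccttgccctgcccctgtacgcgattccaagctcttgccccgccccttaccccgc
Osgin1, plus strand, chr8:119436897-119437146: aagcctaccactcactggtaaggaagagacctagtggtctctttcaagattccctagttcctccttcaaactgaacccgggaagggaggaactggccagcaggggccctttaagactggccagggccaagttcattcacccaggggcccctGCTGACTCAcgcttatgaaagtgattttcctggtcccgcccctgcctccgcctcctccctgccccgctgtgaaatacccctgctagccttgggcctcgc
G6pdx, minus strand, chrX:74428881-74429130: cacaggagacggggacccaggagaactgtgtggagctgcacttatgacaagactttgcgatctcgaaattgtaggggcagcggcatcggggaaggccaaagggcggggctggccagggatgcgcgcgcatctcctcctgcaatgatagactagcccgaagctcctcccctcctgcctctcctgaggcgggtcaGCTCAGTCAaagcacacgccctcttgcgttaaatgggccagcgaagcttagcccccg
Srxn1, plus strand, chr2:152105274-152105523: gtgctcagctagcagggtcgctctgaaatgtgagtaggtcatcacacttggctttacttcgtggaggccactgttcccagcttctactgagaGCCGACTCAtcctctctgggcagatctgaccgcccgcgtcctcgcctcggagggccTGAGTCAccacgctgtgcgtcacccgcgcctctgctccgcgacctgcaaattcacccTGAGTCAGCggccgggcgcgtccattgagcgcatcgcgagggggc

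The Nfe2l2 window holds TGACTCCGC, whose first base lies 240 bases before the start. The Osgin1 window holds GCTGACTCA at 99 bases before the start, the reverse complement of the TGAGNNNGC form, and TGACTCA overlaps it. In front of G6pdx, GCTCAGTCA lies 57 bases before the start, a reverse match to TGACNNNGC. The Srxn1 window holds GCCGACTCA at 158, TGAGTCA at 102 and TGAGTCAGC at 45 bases before the start, the last of which matches both a long form and the AP-1 site. Of the others, Gclm had GCACCGTCA at 134, Slc7a11 had GCTTTCTCA at 97 and 1 of the 3 start sites of Txnrd1 had GCTTTGTCA at 92 bases before the start. TGACNNNGC was present in 4 of the 7 genes and in 11.5% of all 27025 genes of the table, and TGAGNNNGC in 3 of the 7 and in 16.3%. Either long form was present in 7 of 7 against 25.7% of all genes, and TGACTCA in 2 of 7 against 5.16%. The forms TGAGNNNGC and TGACTCA were added to the search after the windows had been read, so these counts are a description of the letters and not of binding.

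The arrays had 59305 spots each, of which 70 to 234 were marked as outliers and none as saturated, and 74.7% to 81.5% of probes were well above background. Markers of hepatocytes were above background on every array for 14 of 14 genes, with median log2 ratios after AAI of 0.02 in females and -0.01 in males. Genes of other cells and tissues differed with the treatment. Over all genes tested, 1.37% were at least 2-fold higher and 3.09% lower after AAI in females, and 3.51% and 4.59% in males. All 16 skeletal muscle genes were at least 2-fold higher after AAI in both sexes, with summed intensities of 1933 and 66990.7 in corn oil-treated and AAI-treated females and of 8539 and 540899 in males. In males 9 of 14 fat genes and 10 of 15 adrenal genes were higher, with sums of 23198 and 149450 for fat and of 18345 and 82374 for the adrenal gland in the corn oil and AAI pools. In the AAI-treated male pool 2 fat genes were at least 2-fold lower, Lipe and Elovl3, the latter with a log2 ratio of -5.71. So were 2 adrenal genes, Mc2r with -2.07 and Ddc with -1.19. Elovl3 and Ddc had the highest log2 signals of their lists in corn oil-treated males, 13.58 and 13.08, against 7.87 and 11.89 on AAI. The fat and adrenal sums in males include these falling signals, so they do not follow the genes that rose alone. In females 5 of 13 fat and 0 of 14 adrenal genes were higher and none was lower, and Ucp1, which defines brown fat, was not above background on either female array. Kupffer cell and macrophage genes were lower after AAI in 10 of 14 cases in females and in 2 of 14 in males, with medians of -1.29 and -0.71, and the erythroid genes in 0 of 11 and 7 of 11. The part of these genes' source cells in the values of the defence genes was not tested, and in RNA of whole liver fewer cells of a type and less RNA per cell cannot be told apart.

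After AAI, none of the defence genes differed by 2-fold or more from corn oil in either sex. The count was 0 of 10 in females, where 4.46% of all genes tested passed 2-fold (1.37% higher and 3.09% lower), and 0 of 9 in males, where 8.1% did (3.51% higher and 4.59% lower). Values are log2 of the array signal after quantile normalization, each gene stands by its brightest probe, and a ratio is the AAI pool's log2 value less that of the corn oil pool of the same sex. The median log2 ratio of the 10 genes was -0.09 in females, with 5 above and 5 below 0, beside 0.04 over the 29714 genes measured on both arrays. In males the median was -0.21, with 2 above and 7 below 0, beside 0.02 over 28433 genes. Pairs of values below give corn oil first and AAI second, and pairs of ratios give females first. Each ratio was recomputed in 7 other ways: with scaling to the 75th percentile or the median of an array, with normexp background correction, without the scanner's multiplicative trend correction, from the authors' normalized intensities, as the mean of all probes, and without spots whose signal had been replaced by a background value. Not all of these could change a ratio much. For a gene with 1 probe above background, the mean of all probes was the reported value itself. None of the defence genes' spots had been replaced, and the authors' intensities are quantile normalized as well. The error the scanner software assigns to a spot corresponds to 0.20 on a log2 ratio of a bright probe. Different probes of 1 gene had ratios with a median SD of 0.25 in females and 0.24 in males, over 9128 and 8618 genes with 2 or more probes.

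**Figure D1:**
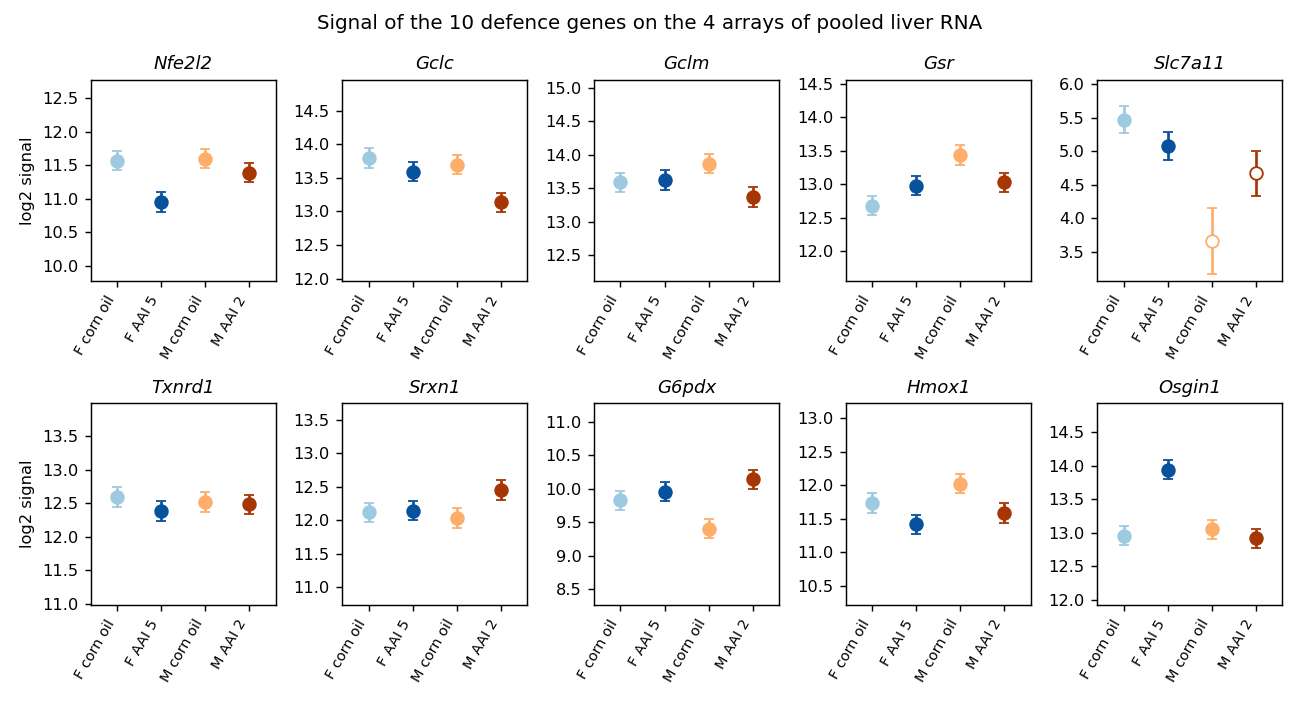
Log2 signal (vertical axis of each panel) of the 10 defence genes on the 4 arrays (horizontal axis), F for female, M for male and 5 or 2 for the AAI dose in mg/kg/day. A point is 1 array of RNA pooled from 5 mice, its bar is the error of the scanner software and an open point was not well above background: Osgin1 stood out at 13.94 in AAI-treated females, and Slc7a11 was above background in females only.

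Nfe2l2 encodes Nrf2. Its brightest probe (NM_010902, mm9 chr2:75513771-75513830) had a log2 signal of 11.57 in females on corn oil and 10.95 in females on AAI, and of 11.60 and 11.39 in the males on corn oil and AAI. The AAI-treated female pool was thus the lowest of the 4, and the other three lay close together. The log2 ratio was -0.61 in females, a 1.53-fold lower signal, with 8.66% of the measured genes lower still, and -0.21 in males, close to the scanner error. A second probe, 15520 bases from the first (ENSMUST00000152371, chr2:75529291-75529350), had 10.40 and 10.03 in females and 9.66 and 10.54 in males. It was lower after AAI in females by a log2 ratio of -0.37, like the brightest probe, and higher in males, by 0.88, opposite to it. The mean of both probes in males was 0.34, so that the direction for Nfe2l2 in males depended on the probe. Keap1, the inhibitor of Nrf2, had ratios of 0.11 in females and 0.39 in males.

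Gclc and Gclm are the catalytic and the modifier subunit of glutamate-cysteine ligase, the rate-limiting enzyme of glutathione synthesis. Gclc (NM_010295, chr9:77641296-77641355) had a log2 signal of 13.80 without and 13.59 with AAI in females and of 13.70 without and 13.13 with AAI in males. Gclm (NM_008129, chr3:121967737-121967796) had 13.59 and 13.62 in females and 13.87 and 13.37 in males. For both subunits the AAI-treated male pool was the lowest of the 4. The log2 ratios in males were -0.56 for Gclc and -0.50 for Gclm, 1.48-fold and 1.41-fold lower, and both stayed below 0 under each of 7 other ways of processing, between -0.64 and -0.47 and between -0.50 and -0.36. In females Gclc had a ratio of -0.20, of the size of the scanner error, and Gclm one of 0.03, whose sign turned under 2 of the 7.

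Gsr, glutathione reductase, returns oxidized glutathione to its reduced form with NADPH. Its probe (NM_010344, chr8:34808488-34808547) had a log2 signal of 12.68 without and 12.98 with AAI in females, against 13.44 and 13.03 in males. The 2 corn oil-treated pools were the extremes and the 2 AAI-treated pools lay between them, close to each other. The AAI ratios were accordingly of opposite sign, 0.30 in females and -0.41 in males, under all 7 other ways of processing as well (0.13 to 0.40 and -0.42 to -0.26). The male ratio minus the female one was -0.71, a difference that was not tested.

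Slc7a11 is the cystine transporter of system xc-, which brings in the cystine from which glutathione is made. Its brightest probe (NM_011990, chr3:50176047-50176106) had 5.47 and 5.08 in corn oil-treated and AAI-treated females and was well above background on both arrays. In males it read 3.67 and 4.67, and it was not well above background on either array. The log2 ratio in females was -0.39 with a scanner error of 0.29 and turned to 0.04 with normexp background correction, and no ratio was given in males. Its 3 further probes, at chr3:50169700-50169759, chr3:50221136-50221195 and chr3:50246786-50246845, were not above background on any array, so that the gene rested on 1 dim probe.

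Txnrd1, thioredoxin reductase, passes electrons from NADPH to thioredoxin in the cytosol. Its brightest probe (NM_001042523, chr10:82360230-82360289) had 12.60 and 12.38 in corn oil-treated and AAI-treated females and 12.52 and 12.48 in males. The 4 pools lay within 0.21 of each other, the narrowest range of the 10 genes. The ratios were -0.21 and -0.03, and a second probe (chr10:82338379-82338438) gave 0.20 and -0.28, so that neither sex had a direction shared by both probes beyond the scanner error. In males the sign turned under 1 of the 7 other ways. Srxn1, sulfiredoxin, repairs over-oxidized peroxiredoxins. Its probe (NM_029688, chr2:151937009-151937068) had 12.12 and 12.14 in females and 12.04 and 12.45 in males. Signal was highest in the AAI-treated male pool, and the other three were alike. The log2 ratio was 0.42 in males, 1.34-fold, between 0.42 and 0.48 under the 7 other ways of processing, and 0.02 in females, with a sign that turned under 4 of them.

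G6pdx, glucose-6-phosphate dehydrogenase, makes NADPH at the entry of the pentose phosphate pathway. Its probe (NM_008062, chrX:71654949-71655008) had 9.83 and 9.96 in corn oil-treated and AAI-treated females and 9.41 and 10.15 in males. The lowest and the highest of the 4 values were thus the 2 male pools. The log2 ratio in males was 0.74, or 1.67-fold, with 94.4% of measured genes lower, and it ranged from 0.63 to 0.75 under the 7 other ways of processing. In females it was 0.13, and its sign turned under 1 of the 7. The muscle, fat and adrenal genes given above were higher in the same AAI-treated male pool, and their part in the G6pdx value was not tested.

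Hmox1, haem oxygenase, degrades haem and is also a gene of the macrophages that clear red cells. Its brightest probe (NM_010442, chr8:77624406-77624466) had 11.74 and 11.42 in corn oil-treated and AAI-treated females and 12.02 and 11.58 in males. It was lower in the AAI-treated pool of each sex, with log2 ratios of -0.32 and -0.44. A second probe (ENSMUST00000160341, chr8:77620085-77620144) had 6.27 and 6.94 in females and 6.12 and 6.32 in males, with ratios of 0.67 and 0.20 in the opposite direction, and the mean of both probes gave 0.18 in females and -0.12 in males. Of the Kupffer cell genes, Cd5l had ratios of -1.77 in females and -1.04 in males, Timd4 of -1.55 and -1.14, and Clec4f of -1.41 and -0.89. These had the largest ratios of the list in females. Marco, of the same list, had 0.05 and 0.09, and 1 of 14 genes in females and 2 of 14 in males had a ratio above 0. The summed intensity of the 14 Kupffer cell and macrophage genes was 169724 on corn oil and 77079.5 on AAI in females, and 144847 and 97787 in males, and its part in the Hmox1 value was not tested.

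Osgin1, a growth inhibitor induced by oxidative stress, had the highest female ratio of the 10 genes. Its probe (NM_027950, chr8:121970077-121970136) had a log2 signal of 12.96 without and 13.94 with AAI in females, and of 13.05 and 12.92 in males. The AAI-treated female pool was the only high one, and the other three lay within the scanner error of each other. The log2 ratio in females was 0.99, or 1.98-fold, just under the 2-fold limit, and it was rank 356 from the highest of 29714 measured genes. It was 0.82 to 0.99 under the 7 other ways of processing and reached 2-fold under none. In males the ratio was -0.13, and -0.26 to -0.05 under the others.

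**Figure D2:**
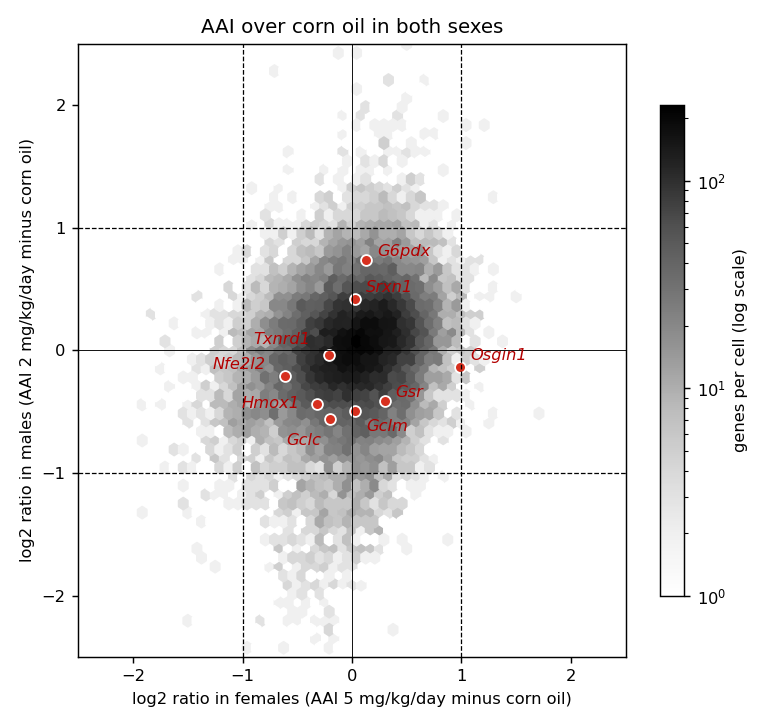
Log2 ratio of AAI over corn oil in females (horizontal axis) against that in males (vertical axis), in grey for all genes above background on the 4 arrays (shade is the number of genes per cell, on a log scale, and genes beyond the axes are not drawn) and in red for the 9 defence genes measured in both sexes. The dashed lines are 2-fold: all 9 points lay inside them, with Osgin1 at 0.99 in females and G6pdx at 0.74 in males nearest to an edge.

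At a lower limit of 1.5-fold, 2 of the 10 genes were counted in females, Osgin1 as higher and Nfe2l2 as lower, where 17.8% of all genes were counted (7.81% higher and 9.95% lower). In males 1 of 9 was counted, G6pdx as higher, where 20.9% of all genes were (9.9% higher). The female share was near that of all genes, and the male share was below it. Across the 19 ratios of a gene in a sex, 12 kept their sign under all 7 other ways of processing. As given above, some of the 7 could hardly change a ratio. Of the 133 recomputed values, 5 moved by more than the scanner error. These were the ratios of Slc7a11 in females with another background correction, and of Txnrd1 in females, Nfe2l2 in males and Hmox1 in both sexes when all probes of a gene were averaged.

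**Figure D3:**
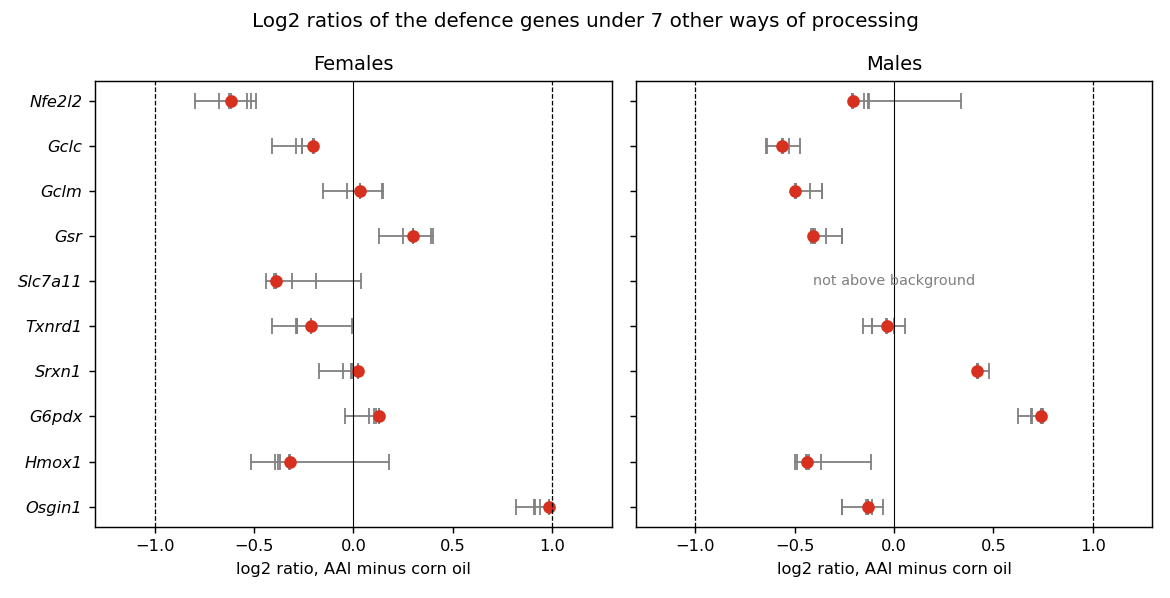
Log2 ratio of AAI over corn oil (horizontal axis) of each defence gene (vertical axis) in females and in males, with a red point for the reported value and a grey tick for each of 7 other ways of processing. No tick reaches the dashed 2-fold lines. The ticks lie on both sides of 0 for Gclm, Slc7a11, Srxn1, G6pdx and Hmox1 in females and for Nfe2l2 and Txnrd1 in males.

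The levels of the genes without AAI were compared between the corn oil-treated pools of each sex. Of the 10 genes, 1 differed by 2-fold or more, where 5.69% of all genes tested did (3.83% higher and 1.86% lower in males). This was Slc7a11, at 5.47 in females and not above background in males, with a lower bound of 2.27 on its fold. The log2 ratio behind that bound was -1.18, with a scanner error of 0.53. With normexp background correction it was -0.21, short of 2-fold. Gsr was 1.69-fold higher in males (13.44 against 12.68, a log2 ratio of 0.76), with 94% of measured genes lower. G6pdx was lower in males by a log2 ratio of -0.42. The ratio of Gsr was 0.58 to 0.77 under the 7 other ways of processing, and that of G6pdx -0.46 to -0.35. The remaining brightest probes differed by -0.10 to 0.29. The 0.28 of Gclm and the 0.29 of Hmox1 were above the scanner error, but fell to 0.06 for Gclm with scaling to the 75th percentile and to 0.07 for Hmox1 as the mean of its probes. Nfe2l2 had a ratio of 0.03 by its brightest probe and of -0.74 by the second, 1.67-fold lower in males, with a mean of -0.36 and a sign that turned under 5 of the 7. By brightest probe, Gsr was the only gene besides Slc7a11 past 1.5-fold, a limit that 18% of all genes passed, 10% as higher and 7.95% as lower in males. Markers of other tissues differed between the same pools: 12 of 16 muscle genes, 7 of 14 fat genes and 7 of 15 adrenal genes were at least 2-fold higher in the male pool and none was lower, with summed muscle intensities of 1933 in females and 8539 in males. Elovl3, with a log2 ratio of 5.88, was among the 7 fat genes. The part of these other tissues in the sex ratios of the defence genes was not tested.

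The other genes of the pathway were taken from lists written from general knowledge, but with earlier results of these data known. Their counts beside the share of all genes are therefore a description only. Muscle genes were higher after AAI in both sexes, and most fat and adrenal genes in males. Their part in the values of the listed genes was not tested. Over all genes tested, 1.37% were at least 2-fold higher and 3.09% lower in females, and 3.51% and 4.59% in males. Of the 14 genes that control Nrf2 (Keap1, small Maf proteins, Bach1, coactivators and others), 1 was at least 2-fold higher in each sex and none was lower, with medians of -0.10 in females and 0.06 in males. This was Crebbp, a coactivator, with ratios of 1.58 and 2.94 by its brightest probe and of 0.02 and -0.06 by another. The list of glutathione enzymes also holds amino acid transporters. Of its genes, 1 of 31 was higher and 1 lower in females and 4 of 30 were higher in males. The medians were 0.14 and -0.08. Mgst3, a microsomal glutathione transferase, was the one higher in both sexes, with ratios of 1.38 and 2.05. Gpx3, the secreted glutathione peroxidase, had ratios of 0.71 and 2.39, Gpx8, of the endoplasmic reticulum, 0.10 and 1.57, and Mgst2 -0.87 and 1.90. The gene lower in females was Slc1a4, an amino acid transporter named after its value was seen, with a ratio of -1.46.

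None of the 23 thioredoxins, peroxiredoxins and their partners reached 2-fold in either sex, with medians of -0.03 and -0.06. Txnip, which binds and inhibits thioredoxin, had 12.96 and 13.58 in corn oil-treated and AAI-treated females and 12.80 and 13.36 in males, ratios of 0.62 and 0.56, and by a second probe 0.16 and 0.64. Of the enzymes that supply NADPH, 1 of 17 in females and 1 of 16 in males was higher and none was lower, with medians of 0.09 and 0.03. This was Me3, a mitochondrial malic enzyme, at 4.92 and 6.17 in females and 5.31 and 9.33 in males. Its ratios of 1.25 and 4.02 were not matched by a further probe, which gave 0.47 and 0.09, and another gave 0.87 in females.

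The drug-metabolizing targets of Nrf2 had higher median ratios than the 10 defence genes. In females 6 of 34 were at least 2-fold higher and none was lower, beside 1.37% and 3.09% of all genes. Of the 34, 29 had ratios above 0, and the median was 0.47, between 0.29 and 0.47 under the other ways of processing. The share of all genes above 0 was not computed, and their median was 0.04 in females and 0.02 in males. Gpx2 and Blvrb, among the 34, are also counted in the glutathione and the haem list. In males 4 of 34 were higher and 3 were lower, beside 3.51% and 4.59% of all genes. The ratio was above 0 for 21 of the 34 in males, and the median was 0.19, between 0.18 and 0.33. Nqo1, the quinone reductase that also reduces the nitro group of AAI, was higher in both sexes, with ratios of 1.5 and 1.78. Gsta2, a glutathione transferase of the alpha class, had 14.68 and 16.36 in corn oil-treated and AAI-treated females and 14.46 and 15.10 in males, ratios of 1.68 and 0.64. Gstm4 and Gstm6, glutathione transferases of the mu class named after their values were seen, had 1.26 and 1.20 in females and 1.25 and 1.14 in males. Gstp1, of the pi class, had ratios of opposite sign, with 13.58 on corn oil and 15.13 on AAI in females and 16.04 and 14.57 in males. The other two lower in males, named after their values were seen, were Aox1, aldehyde oxidase, and Abcg2, an efflux transporter, with ratios of 0.65 and -1.09 for Aox1 and of 0.82 and -1.06 for Abcg2. The genes of the transferase classes resemble one another closely, and the cross-hybridization of their probes was not tested. Akr1b7, an aldo-keto reductase, had ratios of 0.13 and 4.85 and is also on the list of adrenal genes, of which 10 of 15 were higher in the same male pool. The difference between these targets and the 10 defence genes was not tested, because there was 1 array per group.

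**Figure D4:**
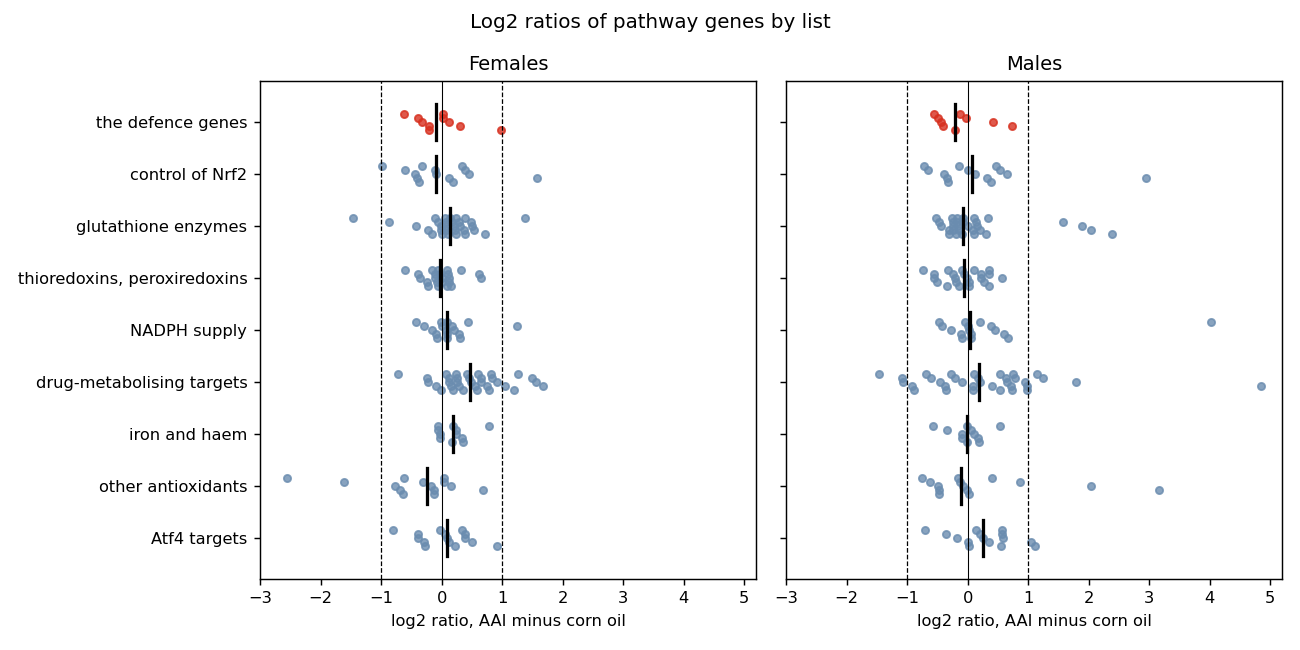
Log2 ratio of AAI over corn oil (horizontal axis) of every tested gene of 9 lists (vertical axis) in females and males, 1 point per gene, with a black bar at the median of the list and dashed lines at 2-fold. The defence genes in red lie between the 2-fold lines with medians of -0.09 and -0.21, and the drug-metabolizing targets have medians of 0.47 and 0.19.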

How the data were processed

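Single-channel arrays of liver RNA were analysed, 1 array for each of 4 groups, with groups taken from the sample labels. Per the file headers, Feature Extraction 10.5.1.1 was used on the scans, and the authors deposited linear intensity values of each spot before and after background subtraction, which are not normalized between arrays. Probe coordinates are those of the files (mouse build mm9), and exons and untranslated regions of that build were not used here. The authors' table of the series holds the same intensities and quantile-normalized ones. Sources do not state which arrays entered that normalization. The table was used as an alternative.

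Control and outlier spots were left out, spots of a probe were averaged, and log2 of the processed intensity was quantile normalized over the 4 arrays (56495 probes with a value on each, Python 3.11.15 and numpy 2.4.6), as in the study's methods. Genes were counted when they differed by 2-fold (1 on the log2 scale) and the probe had a signal well above background on 1 or both arrays of the pair. Where it was dim on one, the lowest signal among probes well above background, or its own if higher, gave a lower bound on the fold. The normexp alternative used limma 3.58.1 (R 4.3.3) with an offset of 50. The code was checked on simulated data. No p-values were computed, since precision is limited by having 1 array a group. Gene names were taken by probe from the array of AAI-treated females, since some read as dates in other files.

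The 10 genes and all lists were chosen with earlier results of these data known. Named genes are the 10 genes with all their probes, at most 4 counted genes of each other list by the larger ratio, at most 3 of each marker list, and Keap1, Nqo1 and Txnip. Some genes that the rule allows are left out. Outside the rule, and chosen after their values were seen, are Slc1a4, Gstm4, Gstm6, Aox1, Abcg2, Fth1, Ftl1, Cat, Lipe, Mc2r, Ddc and Marco. Promoter windows came from RefSeq (GRCm38.p6) and were not joined with array coordinates.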

Additional observations from a re-analysis of the deposited data

Results flagged for a closer look

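Of 160 pathway and defence genes with a ratio in both sexes, 22 had log2 ratios after AAI of opposite sign in the sexes, each larger than the median SD between probes of 1 gene (0.25 in females and 0.24 in males). The share of all genes with such ratios was not computed, so the count of 22 cannot be called particular to these genes. With 1 array per group these differences were not tested, and sex and dose cannot be told apart. The 9 of them that the rule for named genes admits or the report names are given here. Among the 10 defence genes this was Gsr, with 0.30 in females and -0.41 in males, a male minus female difference of -0.71. Mt1 and Mt2, the metallothioneins, which bind zinc and copper, had ratios of -1.62 and -2.55 in females and 2.04 and 3.17 in males, differences of 3.66 and 5.72. The log2 signal of Mt1 was 18.03 on corn oil and 16.41 on AAI in females and 15.99 and 18.03 in males, and that of Mt2 was 17.91 and 15.37 and 14.53 and 17.70 in the same order. A second Mt1 probe had ratios of 0.09 and 1.65. Gstp1 had 1.55 and -1.47, a difference of -3.02, and Mgst2 had -0.87 and 1.90, a difference of 2.76. Aox1 and Abcg2, with ratios above 0 in females and below 0 in males, had differences of -1.74 and -1.88. Gstp1, Aox1 and Abcg2 differed without AAI as well, with male minus female log2 ratios of 2.46, 1.18 and 1.55 on corn oil. Between these pools 5 of 34 drug-metabolizing targets were at least 2-fold higher in males and none was lower, beside 3.83% and 1.86% of all genes. Nupr1 and Phgdh, both targets of Atf4, had -0.29 and 1.11 and -0.40 and 1.05, differences of 1.40 and 1.45, and a second Nupr1 probe had ratios of 0.40 and 0.31.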

How the results depend on the processing

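At least 2-fold from corn oil were 1412 genes in females and 2473 in males, and 1758 differed between the corn oil-treated pools. With normexp background correction these were 482, 1197 and 700, and 0 of the defence genes differed between the pools. Without a filter on dim probes they were 2511, 4033 and 3076, and 1 defence gene, Slc7a11, was counted in males after AAI. A 1.5-fold limit gave 5625, 6382 and 5545 genes, of which 2, 1 and 2 were defence genes, and a 3-fold limit 352, 981 and 533, with 0 between the pools. Apart from the 1.5-fold limit and the missing filter, none of the 10 alternatives run put a defence gene past the limit after AAI. With scaling to the 75th percentile 623 genes were higher and 745 lower in females, 54.5% lower against 69.3%. The cause of these shifts was not tested, beyond the change of limit or filter itself. The median ratio of the defence genes was -0.24 to 0.03 in females and -0.26 to -0.13 in males. Leaving out a replicate could not be run with 1 array per group. No paired analysis was possible because each group has a single array. Slc7a11 is limited by signal over background, with 1 of its 4 probes above it.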

Other observations

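The iron and haem genes, among them the ferritins, had 0 of 11 members past 2-fold in either sex, with median log2 ratios of 0.19 in females and -0.01 in males. Fth1 and Ftl1, the ferritin chains, named after their values were seen, had ratios of 0.17 and -0.03 in females and -0.02 and -0.01 in males. Of 15 targets of Atf4, a transcription factor of amino acid and endoplasmic reticulum stress that also acts on Slc7a11, 0 passed 2-fold in females and 2 were higher in males, with medians of 0.09 and 0.25. The other antioxidant genes numbered 14, with medians of -0.24 and -0.10. The metallothioneins were the 2 lower in females and the 2 higher in males. Over all genes tested, 1.37% were higher and 3.09% lower in females, and 3.51% and 4.59% in males. Mt1 and Mt2 differed between the corn oil-treated pools as well, with male minus female log2 ratios of -2.04 and -3.38. Cat, catalase, named after its value was seen, had ratios of 0.16 in females and -0.75 in males.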
